A study of Mus musculus with 4 samples.

Results

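The TNF superfamily ligands followed here were Tnf, Lta, Ltb, Tnfsf15, Tnfsf9, Tnfsf10, Tnfsf12, Tnfsf13, Tnfsf13b and Tnfsf14, a list of 10 genes. A ligand was measured where a probe set of the array was annotated with that symbol alone, and 8 of the 10 had such a probe set. Where a gene has several, the one with the highest mean value over both groups was to be kept, but each of the 8 had 1, so no member was selected on a difference between the groups by that step. The list of symbols itself was chosen with earlier results of these data known. All 8 passed the intensity filter described below and stood among 14652 genes tested. Tnfsf12 and Tnfsf13 had no probe set of their own and shared 1 that names 3 genes. The cells, from C57BL/6 mice, were dendritic cells grown from bone marrow and harvested on day 7 of culture. In the sulforaphane group (2 arrays) they were kept for 2 h with 0.3 µM sulforaphane in DMSO, an isothiocyanate of cruciferous vegetables known to activate the transcription factor NRF2. In the DMSO group (2 arrays) they received the solvent alone for the same time. Both groups then received 100 ng/ml of lipopolysaccharide (LPS) for 1 h to activate the receptor TLR4, so no array here shows the ligands before LPS. The labels do not say whether replicates came from separate mice or cultures, so p-values cover only the spread between the samples at hand, and this may be technical.

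Ligands of the TNF superfamily are mostly made as transmembrane proteins that assemble into trimers, and many can be released by proteases. Each binds 1 or more receptors of the TNF receptor superfamily, which either start NF-kB and MAP kinase signalling through TRAF adaptors or, where they carry a death domain, can also trigger cell death. Dendritic cells activated through TLR4 are known to make TNF within the first hours, and several of the other ligands serve them as costimulatory signals for T cells or survival signals for B cells.

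Ltb and Tnfsf15 carried the largest differences, and Ltb lies beside Tnf and Lta. In the RefSeq gene order of assembly GRCm38.p6, Ltb, Tnf and Lta are consecutive protein-coding genes of chromosome 17, Tnfsf9 and Tnfsf14 flank Cd70 elsewhere on chromosome 17, and Tnfsf15 and Tnfsf8 are neighbours on chromosome 4. The 250 bases before the annotated start of Ltb, Tnfsf15, Tnf and Lta are shown, because the first pair fell and the other pair follow Ltb in the same cluster. They are taken from RefSeq (GRCm38.p6) and read 5′ to 3′ on the strand of the gene. Their positions are chr17:35194257-35194506 (plus strand) for Ltb, chr4:63745060-63745309 (minus strand) for Tnfsf15, chr17:35202008-35202257 (minus strand) for Tnf and chr17:35205352-35205601 (minus strand) for Lta. Capitals mark matches to the motifs named in the next paragraph.
Ltb: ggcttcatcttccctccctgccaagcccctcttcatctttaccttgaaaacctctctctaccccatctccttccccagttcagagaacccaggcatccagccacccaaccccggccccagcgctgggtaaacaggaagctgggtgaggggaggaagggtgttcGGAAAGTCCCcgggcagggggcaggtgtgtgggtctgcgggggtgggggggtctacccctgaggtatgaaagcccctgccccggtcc
Tnfsf15: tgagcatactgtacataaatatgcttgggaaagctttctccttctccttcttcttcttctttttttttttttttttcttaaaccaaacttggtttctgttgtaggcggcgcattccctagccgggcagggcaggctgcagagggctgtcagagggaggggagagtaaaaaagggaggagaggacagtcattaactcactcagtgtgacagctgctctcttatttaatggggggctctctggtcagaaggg
Tnf: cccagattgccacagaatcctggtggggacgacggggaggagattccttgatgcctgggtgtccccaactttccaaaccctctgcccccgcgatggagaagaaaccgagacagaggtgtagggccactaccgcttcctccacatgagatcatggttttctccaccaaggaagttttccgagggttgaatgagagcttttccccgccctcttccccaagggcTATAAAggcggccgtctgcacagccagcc
Lta: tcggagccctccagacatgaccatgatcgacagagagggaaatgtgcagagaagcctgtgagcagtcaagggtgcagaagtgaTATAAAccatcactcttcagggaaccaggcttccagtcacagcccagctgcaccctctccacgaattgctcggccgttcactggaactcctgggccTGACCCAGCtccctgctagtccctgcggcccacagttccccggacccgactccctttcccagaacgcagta

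Both strands were searched for the NF-kB consensus, for the AP-1 site TGANTCA, for the core of the antioxidant response element TGACNNNGC (the element that NRF2 binds), for the interferon-stimulated response element core GAAANNGAAA and for the TATA box TATAAA. A palindromic match was counted once, and no matches overlapped in these windows. Ltb held 1 match to the NF-kB consensus, GGAAAGTCCC at 87 to 78 bases before the start, read on the opposite strand. Tnf held a TATA box at 29 to 24 bases before the start. Lta held a TATA box at 167 to 162 bases and an antioxidant response element core at 71 to 63 bases before the start. The window of Tnfsf15 had none of the 5 motifs. Windows were matched for 8 of the 10 ligands, not for Tnfsf9 and Tnfsf12, and Ltb was the 1 ligand of these 8 with the NF-kB consensus. Sites further from the start, or departing from the consensus, were not searched. A ligand without a match is thus not shown to lack NF-kB sites. The antioxidant response element core was also in a second window of Tnfsf13b (88 to 80 bases before the start), which held the interferon-stimulated core as well (16 to 7). AP-1 sites were found in Tnfsf13 (133 to 127), in the same window of Tnfsf13b (127 to 121) and in Tnfsf14 (160 to 154). The same consensus occurred in 7.25% of 32817 windows of this length, the TATA box in 12.4%, the antioxidant response element core in 10.2%, AP-1 in 6.75% and the interferon-stimulated core in 2.97%. These matches describe letters in a window, and nothing about binding was measured.

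Values are given as deposited, on a log2 scale after RMA, so that a difference of 1 is a 2-fold change. The table does not state the log base, which was taken to be 2 from the method and the range of values. Array medians lay between 3.24 and 3.27. The interquartile range was 3.61 to 3.62 on both sulforaphane arrays and on DMSO replicate 2, but 3.41 on DMSO replicate 1, which thus differed from the rest, and the difference of each of the 8 ligands is therefore also given without it. Genes were tested where their mean over the 4 arrays exceeded 2.91, the 40th percentile of all probe sets. Limma was fitted across all these genes and p-values were adjusted over all of them (Benjamini-Hochberg), and a gene was called at an adjusted p under 0.05. By this test 2 of the 8 ligands fell and 0 rose, where 0.0683% of all genes fell and 0.0614% rose (10 and 9 genes, 0.13% in either direction, or 72 and 34 genes after a second quantile normalization). The list was chosen with results of these data known, and so nothing about the family is read from that comparison.

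Ltb encodes lymphotoxin beta, the membrane anchor of the lymphotoxin heterotrimer that binds the receptor Ltbr. Its probe set (17337024) gave 7.02 and 7.03 on the sulforaphane arrays, against 8.66 and 8.58 on the DMSO arrays. The groups were far apart, and the arrays within each lay close together. The mean was 7.02 ± 0.0060 with sulforaphane and 8.62 ± 0.061 with DMSO (SD, n = 2 each). Ltb fell by 1.60 on the log2 scale (SE 0.11, 95% interval -1.86 to -1.34), a 3.03-fold lower level (limma, adjusted p = 0.0162). Of the genes tested, 0.0478% had a larger difference in either direction. Without DMSO replicate 1 the difference was -1.55. The annotation places a microRNA gene, Mir6973a, over Ltb.

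Tnfsf15 encodes a ligand of the death-domain receptor Tnfrsf25 that costimulates T cells. It had 7.84 and 7.90 on the sulforaphane arrays, against 9.52 and 9.47 on the DMSO arrays (probe set 17426348). Here too the gap between the groups was many times the spread within them. The means were 7.87 ± 0.044 with sulforaphane and 9.49 ± 0.031 with DMSO (SD, n = 2 each), and Tnfsf15 fell by 1.62 (SE 0.11, 95% interval -1.88 to -1.36), a 3.08-fold lower level with a limma adjusted p of 0.0162. Without DMSO replicate 1 it was -1.60. The annotation places a long noncoding RNA, Gm42294, over the Tnfsf15 gene, and the strand of the probes was not available to tell the 2 transcripts apart.

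The calls of Ltb and Tnfsf15 rested on all 4 arrays being present. With any 1 array left out, limma called neither (adjusted p between 0.0631 and 0.197), although their differences stayed between -1.64 and -1.55 for Ltb and between -1.65 and -1.59 for Tnfsf15. Neither was called when every probe set was tested on its own (adjusted p = 0.358), where 0 of 24807 probe sets passed. A two-sided exact permutation test of 2 against 2 arrays cannot go below 0.333. In a bulk sample, fewer cells of a type that makes a transcript and less of it per cell cannot be told apart.

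Tnf, the founding member and a main early cytokine of the LPS response, had nearly the same value on every array. It was at 12.00 and 12.05 with sulforaphane, against 12.06 and 12.01 with DMSO, so the groups overlapped. The difference was -0.0075 (SE 0.11, 95% interval -0.27 to 0.25, adjusted p = 0.991 by limma), and its sign turned to 0.013 with median centring and to 0.017 without DMSO replicate 1 or without sulforaphane replicate 1. The interval leaves room for a change of that size in either direction. This probe set (17344309) lay at the 99.9th percentile of all probe sets, near the top of the scale, and compression of bright signals was not tested.

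Lta, lymphotoxin alpha, forms a secreted homotrimer that binds the TNF receptors and joins Ltb in the membrane heterotrimer. It had 4.23 and 4.70 on the sulforaphane arrays, against 5.25 and 5.18 on the DMSO arrays. Both sulforaphane values lay below both DMSO values, as was so for 19.5% of all genes tested. The sulforaphane values differed from each other far more than the DMSO values did. Its mean was 4.47 ± 0.33 with sulforaphane and 5.21 ± 0.048 with DMSO (SD, n = 2 each), a difference of -0.75 (SE 0.17, 95% interval -1.17 to -0.33). This did not pass over all genes (limma adjusted p = 0.178). The difference was -0.71 without DMSO replicate 1, -0.98 without sulforaphane replicate 2 and -0.51 once sulforaphane replicate 1 was left out. A microRNA gene, Mir6974, is annotated over Lta.

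Within the chromosome 17 cluster, then, the 3 neighbouring genes had differences of -1.60 (Ltb), -0.0075 (Tnf) and -0.75 (Lta). Taken array by array relative to Tnf, the difference was -1.59 for Ltb and -0.74 for Lta, and -1.61 for Tnfsf15, with no overlap between the groups in any of the 3. Nor did the groups overlap for Tnfsf9 (-0.60), Tnfsf14 (0.30) and Tnfsf13b (-0.074), so this does not set the 3 apart. Only for Tnfsf10 (0.22) did they overlap. The share of all genes that separate in this way relative to Tnf was not computed. On their own values, 19.5% of all genes tested lay lower without overlap and 24% lay higher. The exact permutation p of each ligand without overlap was 0.333, the smallest this design allows (0.389 after Benjamini-Hochberg adjustment over the 7 ligands set against Tnf). The design thus cannot show by that test that these ligands differ from Tnf in their response.

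**Figure D1:**
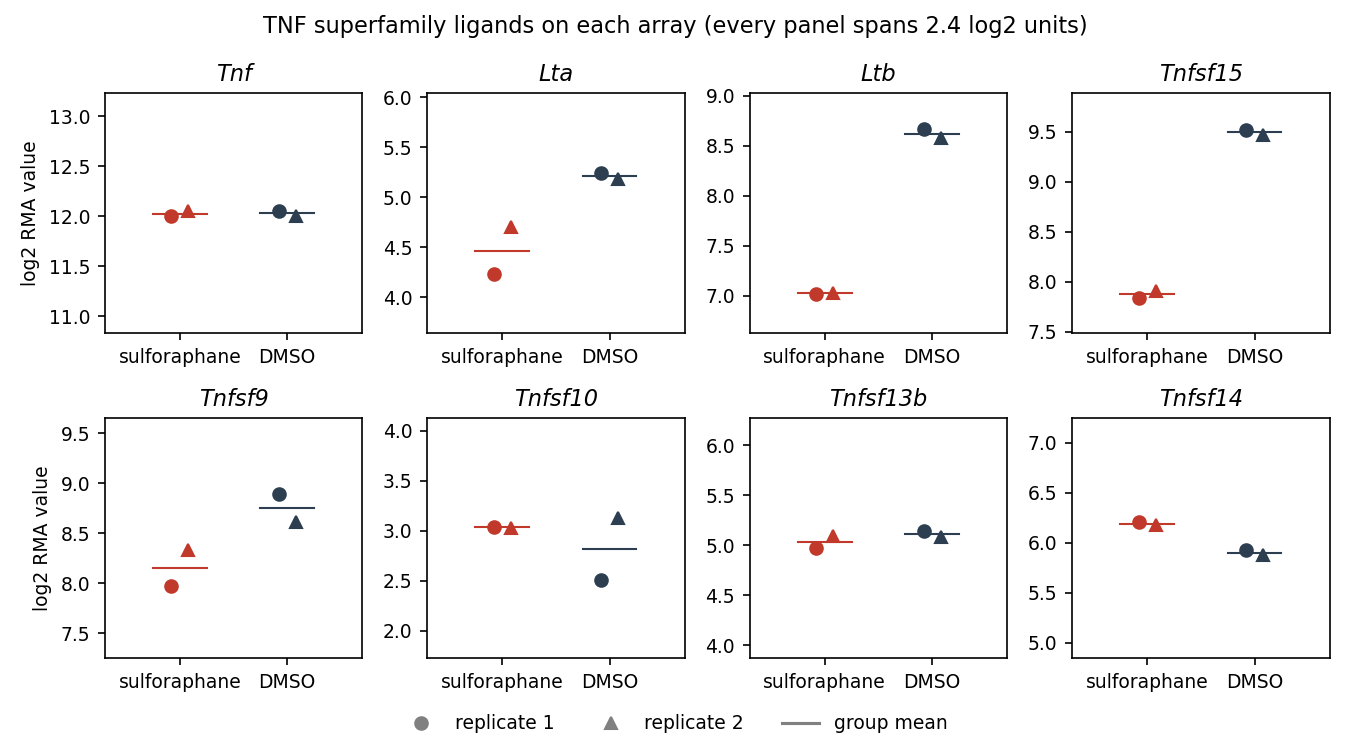
Each panel shows 1 ligand, with its log2 RMA value on each of the 2 sulforaphane and 2 DMSO arrays (circle, replicate 1; triangle, replicate 2) and a line at each group mean. Every panel spans the same range, so that the wide gaps of Ltb and Tnfsf15 (differences of -1.60 and -1.62) can be set beside the level values of Tnf (12.00 to 12.06).

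Tnfsf9 encodes the ligand of the T cell costimulatory receptor Tnfrsf9. Its values were 7.97 and 8.33 with sulforaphane, against 8.89 and 8.61 with DMSO. The groups did not overlap, as was so in the same direction for 19.5% of all genes tested. The higher sulforaphane array and the lower DMSO array, both replicate 2, were close. With means of 8.15 ± 0.26 and 8.75 ± 0.20 in that order (SD, n = 2 each), the difference was -0.60 (SE 0.17, 95% interval -1.01 to -0.19) and did not pass (limma adjusted p = 0.233). It was -0.46 without DMSO replicate 1 and ran to -0.42 without sulforaphane replicate 1 and -0.78 without sulforaphane replicate 2. The annotation places the noncoding gene Gm11110 over part of Tnfsf9.

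Tnfsf14 encodes a ligand of Tnfrsf14 and Ltbr, and so shares the receptor Ltbr with Ltb. It had 6.21 and 6.17 on the sulforaphane arrays, against 5.92 and 5.88 on the DMSO arrays. Both sulforaphane values were above both DMSO values, the reverse of the order seen for Ltb. The difference of 0.29 (SE 0.11, 95% interval 0.032 to 0.55) had an unadjusted p of 0.0331 and an adjusted p of 0.334 by limma, and it was 0.31 without DMSO replicate 1. Higher values without overlap occurred in 24% of all genes tested.

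Tnfsf13b encodes a survival factor of B cells that myeloid cells make. Its values were 4.97 and 5.09 with sulforaphane, against 5.14 and 5.08 with DMSO, and the groups overlapped. The difference was -0.082 (95% interval -0.35 to 0.19, limma adjusted p = 0.828), and -0.052 without DMSO replicate 1. Its relatives Tnfsf13, a factor for B and plasma cells, and Tnfsf12, the ligand of Tnfrsf12a, were read by a single probe set annotated to Tnfsf13, Tnfsf12 and the locus Tnfsfm13, which overlaps both. That probe set had 8.55 and 8.55 with sulforaphane, against 8.47 and 8.60 with DMSO. The DMSO arrays lay on either side of the sulforaphane arrays, with a difference of 0.015 (95% interval -0.31 to 0.33), which cannot be assigned to 1 of the 3 genes.

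Tnfsf10 encodes a ligand that can induce cell death through the receptor Tnfrsf10b. It was close to the intensity filter, with a mean of 2.93 against the limit of 2.91, and had 3.04 and 3.03 with sulforaphane, against 2.51 and 3.13 with DMSO. DMSO replicate 1 was the lowest array and DMSO replicate 2 the highest. The difference of 0.21 (95% interval -0.29 to 0.72, limma adjusted p = 0.737) turned to -0.092 without DMSO replicate 1. Just outside the filter, among ligands that are not in the list, was Cd70 with a mean of 2.76.

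**Figure D2:**
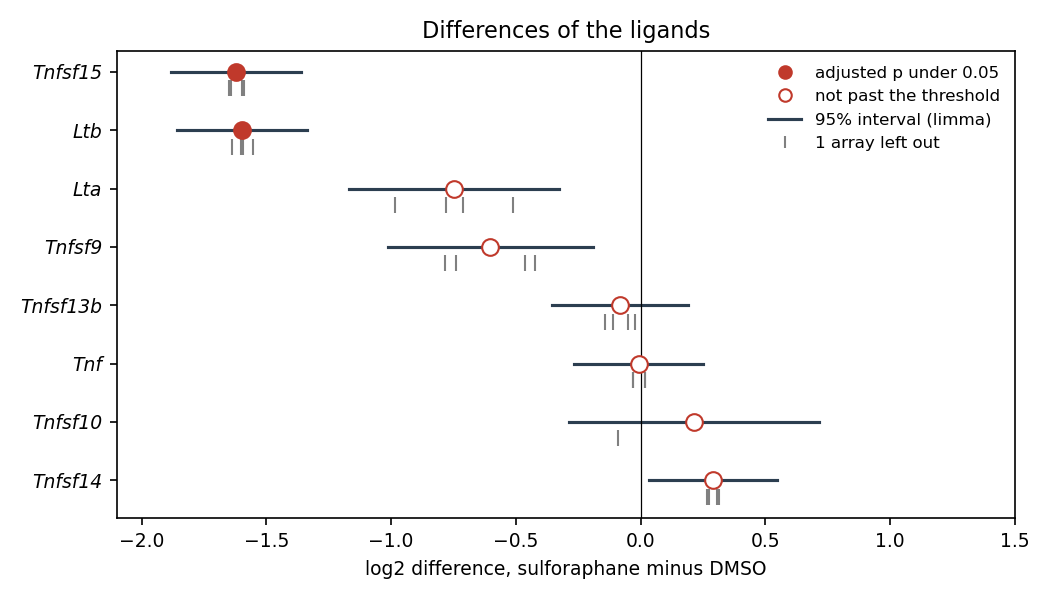
Points are the log2 differences of the 8 ligands, sulforaphane minus DMSO, with 95% intervals from limma (bars), and grey ticks are the differences with 1 array left out where the ligand was still tested. Filled points, Ltb and Tnfsf15, passed the threshold over all genes, and the intervals of Tnf, Tnfsf13b and Tnfsf10 span 0.

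Among themselves the 8 ligands thus ran from -1.62 to 0.29, with 6 below 0 and 2 above. Their median was -0.34, where the median of all genes tested was 0.018. In order from the lowest difference they were Tnfsf15, Ltb, Lta, Tnfsf9, Tnfsf13b, Tnf, Tnfsf10 and Tnfsf14. The intervals of Tnfsf15 and Ltb almost coincide, those of Lta and Tnfsf9 overlap widely, and those of Tnfsf13b, Tnf, Tnfsf10 and Tnfsf14 all overlap. The interval of Tnfsf9 also overlaps those of Tnf, Tnfsf10 and Tnfsf13b, and the interval of Lta overlaps that of Tnfsf13b. Before adjustment, 5 of the 8 had p under 0.05 (Tnfsf15, Ltb, Lta, Tnfsf9 and Tnfsf14), and by 13% of all genes. Differences of at least 1.5-fold without overlap were lower in 4 of the 8 (1.49% of all genes) and higher in 0 (1.32%). As the list was chosen with results of these data known, this median and these counts are given as a description only.

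**Figure D3:**
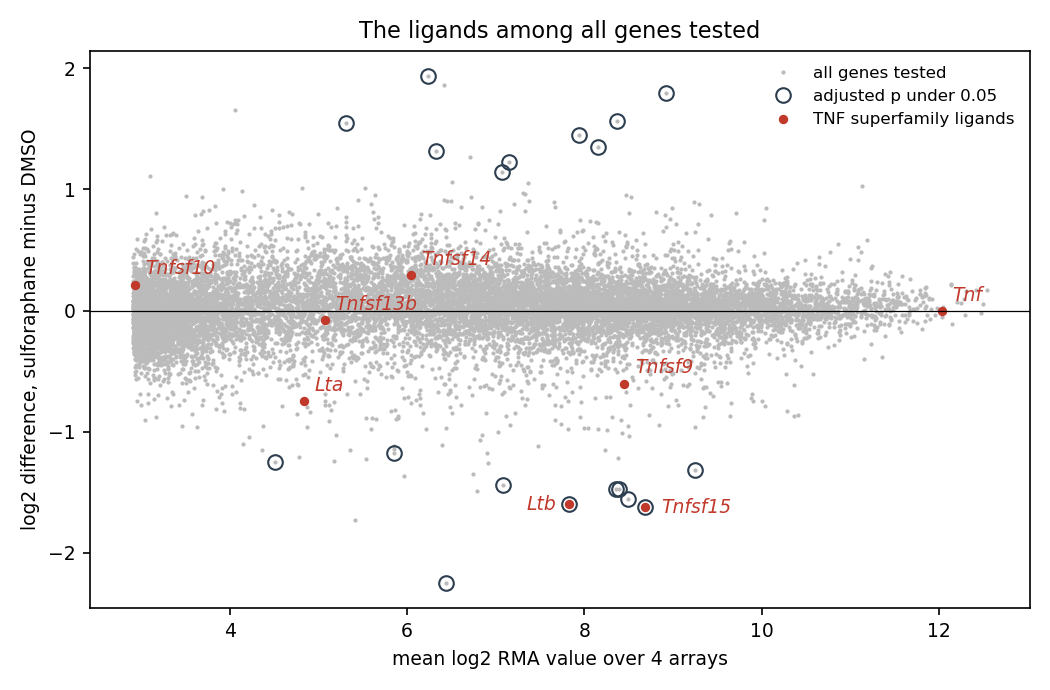
Each grey dot is 1 of the 14652 genes tested, by its mean log2 value over the 4 arrays and its log2 difference, sulforaphane minus DMSO, with the 19 genes past the threshold ringed and the ligands in red. Ltb and Tnfsf15 lie at the lower edge of the cloud at differences of -1.60 and -1.62, while Tnf lies on the line of no difference at the bright end.

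The genes whose 4 array values were most like those of Ltb, by Euclidean distance after centring each gene on its mean, were Tnfsf15 (distance 0.053), the cholesterol hydroxylase Ch25h (0.18) and the nuclear receptor Nr4a1 (0.23). For Tnfsf15 they were Ltb (0.053), Ch25h (0.17) and Nr4a1 (0.21). Ch25h had 7.60 and 7.83 with sulforaphane, against 9.36 and 9.18 with DMSO. Nr4a1 had 7.59 and 7.73 with sulforaphane, against 9.05 and 9.21 with DMSO. With 4 arrays, this likeness is little more than a difference of similar size and is given as a description.

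The other ligands of the superfamily were mostly dim. Of the 8 (Fasl, Cd40lg, Cd70, Tnfsf4, Tnfsf8, Tnfsf11, Tnfsf18 and Eda), 3 passed the intensity filter. Tnfsf8, the ligand of Tnfrsf8 and the neighbour of Tnfsf15 on chromosome 4, had 4.48 and 4.70 with sulforaphane, against 4.96 and 5.27 with DMSO. The sulforaphane values lay lower without overlap, as was so for 19.5% of all genes tested. The difference of Tnfsf8 was -0.53 (SE 0.15, limma adjusted p = 0.244). Tnfsf4, the costimulatory ligand of Tnfrsf4, differed by -0.32 (adjusted p = 0.517) and Eda, ectodysplasin, by -0.12 (adjusted p = 0.817). None of the 3 passed limma, and 1 had an unadjusted p under 0.05.

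The receptors through which these ligands act gave no call. Counts at an unadjusted p under 0.05, here and for the lists that follow, stand against 13% of all genes tested. Of 28 receptor genes 24 were tested, with 9 above 0 and 15 below, a median of -0.084, and 0 past the limma threshold in either direction (4 with an unadjusted p under 0.05). The receptors of Tnf and of lymphotoxin alpha were level, with differences of 0.0015 for Tnfrsf1a and -0.046 for Tnfrsf1b. Ltbr, the receptor of the Ltb heterotrimer and of Tnfsf14, had 8.15 and 8.31 with sulforaphane, against 7.99 and 8.07 with DMSO, a difference of 0.20 (95% interval -0.083 to 0.48). Tnfrsf25, which binds Tnfsf15, differed by 0.0021 (95% interval -0.39 to 0.39), and Tnfrsf9, which binds Tnfsf9, by -0.15 (-0.61 to 0.30). Tnfrsf14, the other receptor of Tnfsf14, differed by -0.35 (adjusted p = 0.260), in the opposite direction to its ligand.

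For the remaining ligands, the death receptor Tnfrsf10b differed by 0.12 and Tnfrsf12a by -0.14. Of the receptors of Tnfsf13b, Tnfrsf13c differed by -0.45 (95% interval -0.93 to 0.022) and Tnfrsf13b by -0.21 (-0.52 to 0.11), while Tnfrsf17 was below the filter. The receptor genes with the smallest p-values were Cd40, which takes T cell help (-0.75, SE 0.10, limma adjusted p = 0.0600), Tnfrsf18, a costimulatory receptor (-0.46, 0.197), the death receptor Fas (-0.48, 0.233) and Tnfrsf14.

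Downstream of the receptors, 26 of 30 signalling genes were tested, with 9 above 0 and 17 below and a median of -0.11. None passed limma and 9 had an unadjusted p under 0.05. Those with the smallest p-values were the inhibitor of NF-kB Nfkbie (-0.79, adjusted p = 0.0581), Tnip1, which restrains TNF receptor signalling (-0.71, 0.0785), the adaptor Traf1 (-0.64, 0.148) and the NF-kB subunit Nfkb2 (-0.46, 0.179). Of 16 genes of ligand shedding, cleavage and mRNA decay, all tested, 6 lay above 0 and 10 below with a median of -0.090, and 0 passed limma (2 with an unadjusted p under 0.05). They included Adam17, the protease that sheds TNF (-0.21, adjusted p = 0.483), and Zfp36l1, which promotes decay of AU-rich mRNAs (-0.52, 0.150), the RNase Zc3h12a (-0.41, 0.233) and the RNA-binding Khsrp (-0.25, 0.500). Across the 4 lists, 3 genes fell (Tnip1, Nfkbie and Cd40) with the filter at the 60th percentile, with a second quantile normalization or with median centring over the genes tested, and 6 with an intensity trend in eBayes.

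**Figure D4:**
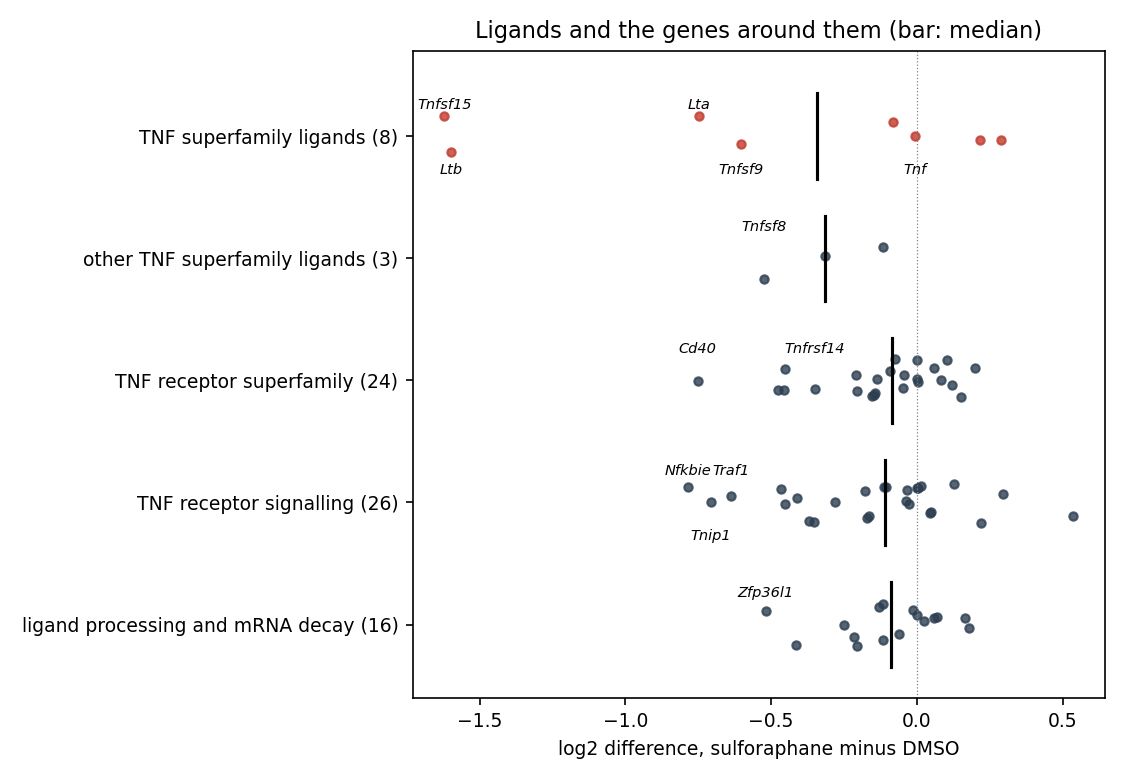
Each point is the log2 difference of 1 tested gene, sulforaphane minus DMSO, by gene list, with the number tested in brackets and a black bar at each median; the vertical scatter within a row has no meaning. The ligands reach to -1.62, while the receptors run from -0.75 to 0.20 and the signalling genes from -0.79 to 0.54.

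Lymphotoxins are made in large part by lymphocytes, so markers of other cells were read on the same arrays. Of 13 T and NK cell markers with a probe set, 6 passed the filter, 3 above 0 and 3 below. Of these 6, 3 lay lower without overlap and 1 higher, where 19.5% and 24% of all genes did. None of the 6 had an unadjusted p under 0.05. The sum of the linear values of the list was 114 and 120 with sulforaphane, against 121 and 119 with DMSO. Cd3e, which defines T cells, had 3.01 and 2.85 with sulforaphane, against 3.05 and 3.24 with DMSO, near the filter limit of 2.91. Of 9 B cell markers, 5 passed the filter, all with differences below 0 (median -0.31), and the summed linear level was 69.9 and 85.5 with sulforaphane, against 83.8 and 89.8 with DMSO. Of these 5, 3 had an unadjusted p under 0.05 and lay lower without overlap, Cd79a (-0.42), Blk (-0.41) and Vpreb3 (-0.31), and none passed limma over all genes. Lower values without overlap occurred in 19.5% of all genes, and Blk (mean 3.10) and Vpreb3 (3.16) were near the filter limit. The markers below the filter did not lie lower, with differences of 0.17 (Cr2), 0.10 (Ebf1), 0.039 (Fcer2a) and 0.0040 (Ms4a1). With means under the filter limit of 2.91, these probe sets may not be able to show a fall. The B cell antigen Ms4a1 was below the filter on all 4 arrays (2.46 to 2.49). The tested B cell markers thus lay below 0 alongside Ltb and Lta, and their part in the result was not tested.

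The dendritic cell markers Itgax (11.32 to 11.33 with sulforaphane, 11.26 with DMSO) and H2-Ab1 (11.80 to 11.81 with sulforaphane, 11.37 to 11.72 with DMSO) were bright on every array. So were the macrophage marker Adgre1 (9.47 to 9.63 over the 4 arrays), the neutrophil marker Ly6g (7.96 to 8.34) and the mast cell marker Cpa3 (9.88 to 10.07). Transcripts used as markers of other myeloid cells were thus present, but which cells made them was not measured. The median difference was -0.069 over the 13 dendritic cell markers tested, -0.14 over the 14 of macrophages, 0.044 over the 10 of neutrophils and -0.069 over the 8 of mast cells and basophils. In that order 6, 3, 1 and 2 markers had an unadjusted p under 0.05, and none passed limma over all genes. Lower values without overlap, found in 19.5% of all genes, occurred in 7, 7, 1 and 4 of them. Higher values without overlap, found in 24% of all genes, occurred in 3, 0, 1 and 0. Dendritic cell markers lower without overlap included Irf4 (-0.87), Batf3 (-0.64), Ciita (-0.46), Kmo (-0.45), Flt3 (-0.42) and Zbtb46 (-0.34). These markers lay lower with Ltb and Tnfsf15, while 6 of the 13 tested lay above 0. The 6 were H2-Ab1 (0.26), H2-Aa (0.16), Dpp4 (0.13), Ccr7 (0.092), Itgax (0.066) and Cd209a (0.024). Among the other lists, markers lower without overlap included Vcam1 (-0.78) and Ccr2 (-0.51) of macrophages, Hdc (-0.61) and Gata2 (-0.57) of mast cells and basophils and the granulocyte factor Cebpe (-0.40). Csf1r (-0.033), Itgam (0.052), Cpa3 (0.015) and Kit (-0.0071) of the same lists were not among them, and Mpo (0.26) was higher without overlap. Above 0 were 2 of 14 macrophage, 7 of 10 neutrophil and 1 of 8 mast cell and basophil markers. The summed linear level of macrophage markers was 14008 and 13272 with sulforaphane, against 14055 and 15230 with DMSO, with 12 of 14 below 0. The summed linear level of the 8 ligands was 4842 and 5072 with sulforaphane, against 6017 and 5741 with DMSO. The part of these cell types in the values of the ligands was not tested.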

How the data were processed

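Per the labels' protocols, total RNA of 4 dendritic cell samples was labelled with biotin and hybridised to Affymetrix arrays. Per the submitters' processing notes, the authors made the deposited log2 values with RMA under R 2.15.1. RMA corrects background, normalizes quantiles between arrays and summarises probes, which can compress differences of very bright and very dim probe sets. Neither the summary level nor any filter was stated. Of 41345 probe sets, 25335 were in the platform annotation, 23521 with 1 symbol and 1814 with several, and 16010 were not listed.

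From these log2 values, each gene was represented by its brightest probe set on average, and the 14652 genes past the intensity filter (40th percentile) were fitted with limma 3.58.1 (lmFit and eBayes, R 4.3.3), sulforaphane minus DMSO, without a replicate block (2 residual and 4.02 prior degrees of freedom). Array number, 2 per group, limits the precision. The procedure was tested on simulated data. The ligands and the 11 gene lists were chosen with earlier results of these data known. Outside the ligands and their receptors, genes were named by a rule: every listed gene past the threshold, the 4 with the smallest unadjusted p per pathway list, the 3 genes most like each ligand that passed, and defining cell markers. Other cell markers, such as Ms4a1 and Irf4, were chosen after their values were seen. Alternatives covered the filter, scaling, probe set choice, variance model, a replicate block and each array left out.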

Additional observations from a re-analysis of the deposited data

How the results depend on the processing

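Ltb and Tnfsf15 fell, with 2 of 8 ligands past the limma threshold, with a replicate block, robust estimation, an intensity trend, the mean of probe sets, median centring, another round of quantile normalization, the filter removed or raised to the 60th percentile, and median centring over the genes tested (chosen after seeing the data). They lost the call with every probe set tested on its own (0 ligands, 4 with an unadjusted p under 0.05) and with any array left out (0 to 0 ligands, 3 to 4 with an unadjusted p under 0.05), where 1 residual degree of freedom is left. The lone array of a group is then assumed to vary like the other group. Over the 8 ligands, 94 of the other values kept direction and side of the threshold, 10 lost the call and 4 changed sign: Tnf (0.013 with median centring, and between -0.032 and 0.017 with an array left out) and Tnfsf10 (-0.092 without DMSO replicate 1). Tnfsf10 was not tested without any of the other 3 arrays or with the filter at the 60th percentile.

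All genes past the threshold numbered 19, but 138 with the filter at the 60th percentile, 106 with a second quantile normalization (34 higher, 72 lower), 143 with median centring over the genes tested (41 higher, 102 lower), 34 with the mean of probe sets, 249 with an intensity trend, 0 with every probe set on its own (2231 with an unadjusted p under 0.05), and 0 to 0 with an array left out (1032 to 2814 with an unadjusted p under 0.05). With the replicate block it was 8, and the adjusted p of Ltb and Tnfsf15 was 0.0421. Deviations of same-numbered arrays correlated at -0.081 over genes. With 2 arrays per group this value cannot show whether replicate numbers pair cultures or mice, and the labels do not say. Genes of the pathway lists past the threshold numbered 0, but 3 with the filter at the 60th percentile, 3 with a second quantile normalization, 3 with median centring over the genes tested and 6 with an intensity trend. The cause of these shifts was not tested. Signal near the filter limits Tnfsf10, and 2 arrays per group limit every value.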
